A study of Homo sapiens with 6 samples.

Results

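Immediate early genes and genes that feed back on mitogen-activated protein kinase (MAPK) signaling were examined in HepG2 cells exposed to sedanolide. The 10 genes were taken by symbol and matched to Ensembl identifiers in the deposited counts: FOS, FOSL1, FOSL2, JUN, JUNB, JUND, EGR1, MYC, DUSP1 and DUSP6. All 10 passed the filter on low counts, among 14102 genes tested of 61541 in the count table. Of these, 9 are also in the deposited log2 table of TPM, transcript abundances scaled for length and depth, which holds 10971 genes, and EGR1 is not used from it. RNA-seq had been performed on luciferases-expressing HepG2 cells, a human hepatoblastoma line that carries a red luciferase driven by antioxidant response elements and a green luciferase as internal control. The treated group (sedanolide 1 to 3) received sedanolide, a phthalide-type compound of celery oil, at 100 μM for 24 h, and the other group (control 1 to 3) is labeled as control. All cells carried both reporters and were grown in the same medium with fetal bovine serum, which itself contains growth factors. All libraries are from 1 time point in 1 cell line, and nothing in the labels says whether replicates came from separate cultures, so that p-values measure the spread between these libraries only.

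Immediate early genes are transcribed within minutes of a stimulus without new protein synthesis, mostly through SRF and its ternary complex partners and through CREB, which stand downstream of the ERK, JNK and p38 kinases. FOS and JUN proteins pair to form AP-1, a dimer of basic leucine zipper (bZIP) proteins that binds DNA, and the composition of the dimer differs with the members that a cell holds. EGR1 is a zinc finger transcription factor, and MYC is a transcription factor that pairs with MAX and drives ribosome production and growth. DUSP1 and DUSP6 are phosphatases that remove the activating phosphates from MAP kinases, DUSP1 mainly in the nucleus from p38, JNK and ERK and DUSP6 in the cytoplasm from ERK, and both are induced by the pathways that they dampen.

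Total expected counts were between 16420258 and 26714853 per library. The libraries also differed along component 1 of a principal component analysis of log2 CPM (56.1% of the variance), with controls 1 and 2 and sedanolide 3 at one end and control 3 and sedanolide 1 and 2 at the opposite end. The share of mitochondrial counts was 1.43% to 2.15% in the former libraries and 4.23% to 5.22% in the latter. These ends are called sides here, and they were read from the same counts and not from a label. No batch is given in the labels, and both groups have libraries on both sides, so that differences within each side are given beside those of all libraries. All 10 markers of HepG2 cells and hepatocytes were detected, and their summed level was 29952 to 45980 CPM in controls and 22137 to 38940 CPM in sedanolide libraries. Their median log2 fold change was -0.33, with 9 of 10 below 0 and 3 of 10 lower at an unadjusted p-value under 0.05 (ALB, TTR and FGB). Among 13 markers of other cell types, 4 were tested and 5 had no count in any library (COL1A2, DCN, LUM, VWF and HBB). Their summed level was 835.7 to 1356.1 CPM in controls and 491.8 to 785.0 CPM in sedanolide libraries, nearly all of it LYZ, so that the sum follows that gene (log2 fold change -0.85). The other 3 tested differed in sign, with -1.42 for PDGFRB (20.1 and 7.51 CPM, no overlap), 0.07 for PECAM1 and 0.36 for CD68 (11.4 and 14.5 CPM, no overlap), and none of the 4 was called. The markers with counts that were not tested were COL1A1, COL3A1, CDH5 and PTPRC. They had 7, 5, 10 and 4 counts over all libraries together. In bulk RNA, fewer cells of a type and less RNA per cell cannot be told apart. The part of these marker differences in the results for the 10 genes was not tested.

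Promoters were searched for the letters of classical elements of such genes. RefSeq sequences on GRCh38.p14 were read for 8 of the 10 genes, over 250 bases before the start. FOSL1 had no matched sequence, and MYC was left out of this search. Shown are FOS and EGR1, whose libraries did not overlap between the groups, and JUN and DUSP1, whose libraries did. Capitals mark CArG boxes, which SRF binds, the core TGACG of the cyclic AMP response element (CRE) on either strand, and the AP-1-like site TGACATCA. The windows are chr14:75278578-75278827 (plus strand) for FOS, chr5:138465229-138465478 (plus strand) for EGR1, chr1:58784048-58784297 (minus strand) for JUN and chr5:172771196-172771445 (minus strand) for DUSP1, each printed 5′ to 3′.
FOS: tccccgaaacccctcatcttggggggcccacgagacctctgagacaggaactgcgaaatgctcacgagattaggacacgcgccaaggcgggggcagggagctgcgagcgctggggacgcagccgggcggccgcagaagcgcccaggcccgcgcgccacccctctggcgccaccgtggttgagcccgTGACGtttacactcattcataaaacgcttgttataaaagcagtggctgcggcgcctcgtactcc
EGR1: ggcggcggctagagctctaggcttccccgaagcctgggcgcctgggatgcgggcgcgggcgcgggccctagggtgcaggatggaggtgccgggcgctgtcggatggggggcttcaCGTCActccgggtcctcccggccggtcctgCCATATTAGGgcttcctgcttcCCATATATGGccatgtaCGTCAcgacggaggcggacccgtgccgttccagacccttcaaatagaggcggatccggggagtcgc
JUN: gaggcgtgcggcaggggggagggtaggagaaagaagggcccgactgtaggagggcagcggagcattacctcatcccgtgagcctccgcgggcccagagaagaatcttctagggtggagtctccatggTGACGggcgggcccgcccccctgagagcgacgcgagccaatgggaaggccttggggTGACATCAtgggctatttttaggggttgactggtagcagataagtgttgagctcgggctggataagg
DUSP1: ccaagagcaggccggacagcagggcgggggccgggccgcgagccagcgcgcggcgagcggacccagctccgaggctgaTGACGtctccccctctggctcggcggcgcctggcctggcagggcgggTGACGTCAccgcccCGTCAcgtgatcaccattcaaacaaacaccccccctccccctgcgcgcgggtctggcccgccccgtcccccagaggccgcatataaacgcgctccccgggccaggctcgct

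EGR1 held 2 CArG boxes, at 105 to 96 and at 83 to 74 bases before its start, and no other of the 8 promoters held one in this window. A CArG box was found in 1.16% of 35116 RefSeq promoters of the same length. The core TGACG was found on either strand in 7 of the 8 promoters (all except DUSP6), against 21.2% of all promoters, and in FOS it lies at 64 to 60 bases before the start. The full CRE TGACGTCA, which contains TGACG on both strands, was found in DUSP1 and JUND (1.65% of all promoters). JUN held the AP-1-like site TGACATCA at 67 to 60 bases before its start (2.37% of all promoters). The canonical AP-1 site TGANTCA was in none of the 8 windows and in 6.57% of all promoters. The core of the antioxidant response element, TGACNNNGC, which NRF2 binds with small MAF proteins, was found in DUSP1 and JUND and in 10.9% of all promoters, and in both genes 1 of its matches overlaps the CRE core. The letters TATAA, of the TATA box, were found in DUSP1, FOS, JUNB and JUND and in 18.9% of all promoters. These are matches of letters on both strands in a fixed window and not bound sites. The promoters behind the shares over all promoters were not matched to these 8 in base composition, and its part was not tested. Bases further upstream were not read, so that a gene without a match here can still carry the element.

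Among the 10 genes, FOS and FOSL1 were higher in sedanolide-treated cells at both thresholds (FDR 0.05, fold change 1.5), and none was lower. Over all genes tested, 0.355% were called higher and 0.312% were called lower. At an unadjusted p-value under 0.05, 4 of the 10 genes were higher (FOS, FOSL1, EGR1 and MYC) and 0 were lower, against 5.34% higher and 6.57% lower of all genes. In the same 4 genes every sedanolide library was above every control library in normalized CPM, which was true of 8.69% of all genes, and none of the 10 had every sedanolide library below (9.65% of all genes). The median log2 fold change was 0.22 over the 10 genes and 0.0057 over all genes tested, with 6 of the 10 above 0 and 4 below. The median of the 10 was 0.09 without sedanolide 3, and that of the 9 genes in the second table was 0.07 there. The counts of called genes, their directions and all p-values came from the quasi-likelihood test of edgeR, adjusted by Benjamini-Hochberg over all genes tested, and CPM (counts scaled to library size) are normalized by TMM, which scales libraries to each other.

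**Figure D1:**
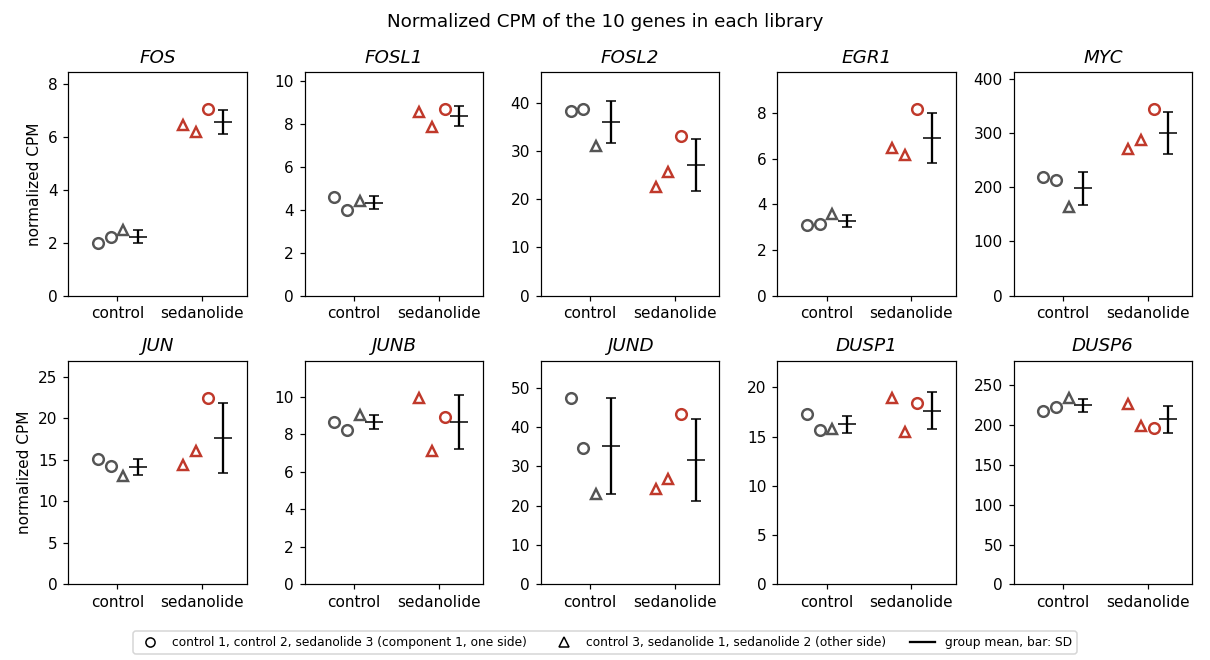
Normalized CPM of the 10 genes in each library, each panel on its own linear axis from 0. Open symbols are libraries, circles for control 1, control 2 and sedanolide 3 and triangles for the others, and the bars give the mean and SD of 3 libraries. In FOS, FOSL1, EGR1 and MYC all sedanolide libraries lie above all controls, while in JUND the circles lie above the triangles in both groups.

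FOS (ENSG00000170345, chromosome 14 of GRCh38, 75278826 to 75282230, plus strand) encodes the c-Fos subunit of AP-1, the standard marker of immediate early transcription. Its normalized level was 2.00, 2.20 and 2.49 CPM in controls 1 to 3 and 6.45, 6.18 and 7.06 CPM in sedanolide 1 to 3. The groups were far apart, with little spread inside either. Rounded counts were 33, 52 and 44 in controls and 120, 160 and 178 in sedanolide libraries, so that the gene was low in all of them. FOS rose 2.94-fold, from 2.23 ± 0.245 to 6.56 ± 0.449 CPM (SD, n = 3), with a 95% interval of 2.26 to 3.82. On the log2 scale this was 1.55 with a standard error of 0.162 and an adjusted p of 0.0172 (edgeR), rank 16 of all genes by p-value. It was 1.71 and 1.31 within the sides of component 1, and FOS itself differed little between the sides (-0.04). The call depended on single libraries: the adjusted p was 0.159 without control 1, 0.0961 without control 2, 0.0689 without sedanolide 1 and 0.151 without sedanolide 2, while the log2 fold change stayed between 1.48 and 1.64 in the fits that left out a library.

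FOSL1 (ENSG00000175592, chromosome 11, 65892049 to 65900573, minus strand) encodes FRA1, a FOS family protein that lacks the transactivation domain of c-Fos and is stabilized by ERK. It was measured at 4.60, 3.98 and 4.41 CPM in controls 1 to 3 and 8.55, 7.84 and 8.68 CPM in sedanolide 1 to 3. Again the groups were separate in all libraries. FOSL1 rose 1.93-fold, from 4.33 ± 0.318 to 8.36 ± 0.453 CPM (SD, n = 3). The log2 fold change of 0.95 had a standard error of 0.140, a 95% interval of 0.62 to 1.28 and an adjusted p of 0.0379 (edgeR). Within the sides it was 1.00 and 0.88. The gene was not past the FDR threshold in any of the 6 fits that left out a library, where the adjusted p was 0.207, 0.195 and 0.134 without controls 1, 2 and 3 and 0.162, 0.227 and 0.0587 without sedanolide 1, 2 and 3.

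FOSL2 (ENSG00000075426, chromosome 2, 28392448 to 28417317, plus strand) encodes FRA2, the remaining FOS family member of the set. Its level was 38.2, 38.6 and 30.9 CPM in controls 1 to 3 and 22.4, 25.6 and 33.1 CPM in sedanolide 1 to 3. Sedanolide 3 lay above control 3, and the groups overlapped. The log2 fold change was -0.41 (95% interval -0.82 to 0.0085, adjusted p = 0.428 by edgeR), the lowest of the 10 genes. It was -0.22 and -0.37 within the sides, and FOSL2 was also higher on the side of controls 1 and 2 and sedanolide 3 by 0.39 on the log2 scale. Its sign was opposite to that of FOS, but FOSL2 did not pass the test. The unadjusted p was 0.0537 in the main test (edgeR). It was 0.0487 with limma-voom, and 0.0191 with the side as a term and 0.00721 without sedanolide 3 (edgeR). The side was read from the same counts, so that its p can be too small. Without sedanolide 1 the unadjusted p was 0.161 (edgeR), and no alternative had an adjusted p below 0.133.

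EGR1 (ENSG00000120738, chromosome 5, 138465479 to 138469303, plus strand) is a classical target of SRF and ELK1 and carries the paired CArG boxes printed above. It was found at 3.09, 3.13 and 3.56 CPM in controls 1 to 3 and 6.45, 6.14 and 8.17 CPM in sedanolide 1 to 3. The lowest sedanolide library was well above the highest control. Counts were 51 to 74 in controls and 120 to 206 in sedanolide libraries. The difference was 2.12-fold, from 3.26 ± 0.260 to 6.92 ± 1.09 CPM (SD, n = 3), and its log2 value of 1.09 had a standard error of 0.174 and a 95% interval of 0.68 to 1.49. The adjusted p of 0.0513 (edgeR) just missed the threshold, so that EGR1 was not called. The adjusted p was 0.000432 with DESeq2 and 0.0199 without the filter on low counts (edgeR), both past the threshold. It was 0.00752 with a term for the side (edgeR), which can be too small because the side was read from the same counts. In the fits that left out a library it was between 0.0652 and 0.311. Within the sides the log2 difference was 1.37 and 0.81.

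MYC (ENSG00000136997, chromosome 8, 127735434 to 127742951, plus strand) was the most abundant of the 9 genes in TPM. Its normalized level was 218.5, 212.8 and 162.7 CPM in controls 1 to 3 and 271.2, 286.1 and 343.8 CPM in sedanolide 1 to 3. All sedanolide libraries were above all controls, and in each group the libraries on one side were higher, by 0.35 on the log2 scale over both groups. The mean was 198.0 ± 30.7 CPM in controls and 300.4 ± 38.4 CPM in sedanolide libraries (SD, n = 3). The log2 fold change of 0.60 (standard error 0.161, 95% interval 0.22 to 0.98) had an unadjusted p of 0.00711 and an adjusted p of 0.206 (edgeR), and MYC was not called. It was 0.67 and 0.78 within the sides. With the side as a term it was 0.72 with an adjusted p of 0.00239 (edgeR). This p can be too small, because the side was read from the same counts. With DESeq2 the adjusted p was 0.0443, whereas without single libraries the adjusted p was between 0.162 and 0.645.

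JUN (ENSG00000177606, chromosome 1, 58776845 to 58784048, minus strand) is the main partner of FOS in AP-1 and is known to act on its own promoter through AP-1-like sites. Its level was 15.1, 14.3 and 13.1 CPM in controls 1 to 3 and 14.4, 16.1 and 22.5 CPM in sedanolide 1 to 3. Only sedanolide 3 stood clearly above the controls. The log2 fold change was 0.32 with a 95% interval of -0.12 to 0.76 (adjusted p = 0.559 by edgeR). Within the sides it was 0.61 and 0.21, and JUN differed by 0.36 between the sides. With the side as a term it was 0.43 (unadjusted p = 0.00767, adjusted p = 0.0992 by edgeR). These p-values can be too small, because the side was read from the same counts. Without sedanolide 3 the log2 fold change was 0.11. JUNB (ENSG00000171223, chromosome 19, 12791486 to 12793315, plus strand), an AP-1 subunit that activates less than JUN, was at 8.66, 8.26 and 9.04 CPM in controls 1 to 3 and at 9.95, 7.11 and 8.92 CPM in sedanolide 1 to 3. The groups overlapped fully. Its log2 fold change was -0.0015, with a 95% interval of -0.38 to 0.38. JUNB shares 259 exon bases with HOOK2 on the opposite strand, whose counts over the whole gene were 78.8% of those of JUNB. The libraries were made with a directional kit, but whether the counting used strand is not given in the sources used here, and reads in the shared bases were not counted apart.

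JUND (ENSG00000130522, chromosome 19, 18279694 to 18281622, minus strand), the JUN family member that is usually present in resting cells, followed the sides rather than the groups. Its level was 47.4, 34.8 and 23.1 CPM in controls 1 to 3 and 24.4, 26.9 and 43.4 CPM in sedanolide 1 to 3. The lowest control and the lowest sedanolide library were close to each other, as were the highest. The difference between the sides was 0.79 on the log2 scale, the largest of the 10 genes, and its transcript has the highest GC content of them (69.9%, against 46.5% for DUSP6). Whether base composition has a part in this was not tested. The log2 fold change was -0.15 with a wide 95% interval of -0.89 to 0.59, and its sign turned to 0.12 with the side as a term, to 0.11 without control 1 and to 0.07 in the second table.

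The phosphatases did not pass the test. DUSP1 (ENSG00000120129, chromosome 5, 172768096 to 172771195, minus strand) was at 17.3, 15.7 and 15.8 CPM in controls 1 to 3 and at 18.9, 15.5 and 18.4 CPM in sedanolide 1 to 3. Its libraries overlapped, and the log2 fold change was 0.12 with a 95% interval of -0.19 to 0.42 (adjusted p = 0.760 by edgeR). DUSP6 (ENSG00000139318, chromosome 12, 89347235 to 89352501, minus strand), a widely used readout of ERK activity, was at 218.2, 222.2 and 234.1 CPM in controls 1 to 3 and at 226.5, 198.6 and 196.0 CPM in sedanolide 1 to 3. Sedanolide 1 lay within the range of the controls. Its log2 fold change was -0.12 with a 95% interval of -0.39 to 0.15 (adjusted p = 0.717 by edgeR). Both intervals lie inside a fold change of 1.5 in either direction. A noncoding RNA of the other strand overlaps 1105 exon bases of DUSP6, with 0.161% of its counts.

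**Figure D2:**
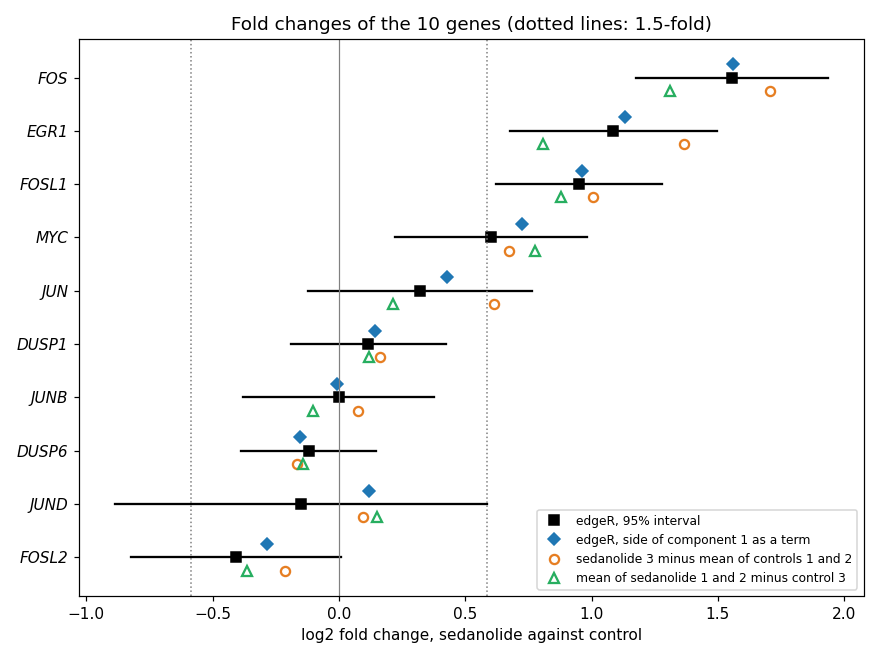
Log2 fold changes of the 10 genes in sedanolide-treated against control cells, with the 95% interval of edgeR, beside the value of a fit with a term for the side of component 1 and the differences within each side, which have no test. The intervals of FOS, EGR1, FOSL1 and MYC lie above 0, those of DUSP1 and DUSP6 lie between the dotted lines at 1.5-fold, and FOSL2 is lowest at -0.41.

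Levels of different genes were compared in TPM, which corrects for transcript length. In control cells the order was MYC (166.6 ± 28.8 TPM), DUSP6 (142.4 ± 13.5 TPM), JUND (54.7 ± 34.1 TPM), DUSP1 (12.7 ± 1.02 TPM), FOSL2 (8.21 ± 1.69 TPM), JUNB (7.54 ± 0.227 TPM), JUN (6.90 ± 0.808 TPM), FOSL1 (4.54 ± 0.482 TPM) and FOS (1.91 ± 0.394 TPM; SD, n = 3). Among neighbors in this order, MYC and DUSP6, FOSL2 and JUNB, and JUNB and JUN overlapped in their libraries, and the other neighbors did not. In sedanolide-treated cells MYC was at 238.6 ± 56.2 TPM and DUSP6 at 115.8 ± 14.6 TPM, and their libraries no longer overlapped. FOS remained lowest, at 4.66 ± 0.883 TPM, but its libraries overlapped those of FOSL2 (5.47 ± 1.57 TPM), which it did not reach in controls. FOSL1 was at 7.88 ± 0.939 TPM, next to JUN (7.91 ± 2.80 TPM) and JUNB (6.98 ± 1.25 TPM), with overlap. JUND (53.4 ± 24.0 TPM) and DUSP1 (12.8 ± 1.87 TPM) kept their places.

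**Figure D3:**
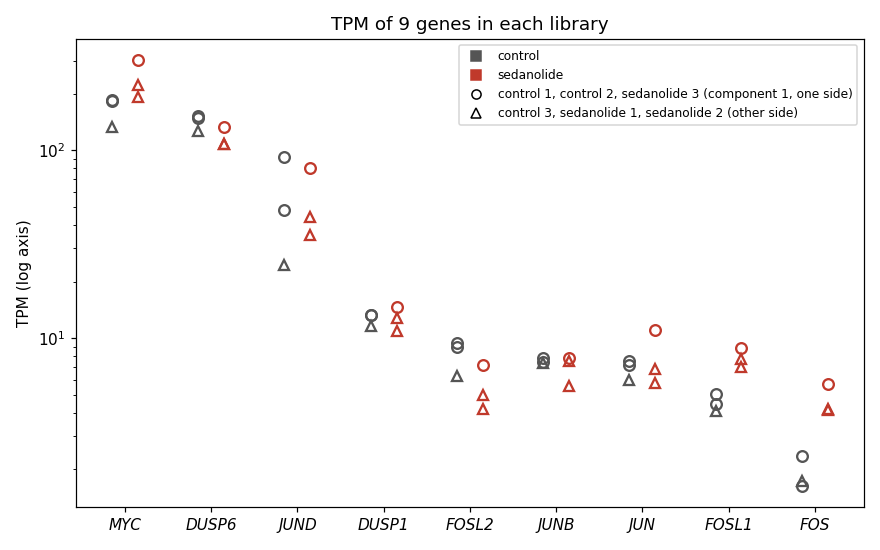
TPM of the 9 genes of the second table in each library, on a log axis, in order of the control mean, with controls in gray and sedanolide libraries in red. MYC and DUSP6 lie above 100 TPM in all libraries, FOS lies lowest, and the sedanolide libraries of FOS reach those of FOSL2.

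The FOS family transcripts were also compared as shares of their sum, which does not depend on the scaling of a library. FOS made up 10.4%, 14.6% and 14.3% of the summed TPM of FOS, FOSL1 and FOSL2 in controls 1 to 3 and 25.9%, 25.6% and 26.1% of it in the corresponding sedanolide libraries. FOSL1 made up 32.4%, 27.4% and 33.9% in controls and 48.0%, 43.5% and 40.8% in sedanolide libraries. FOSL2 made up 57.2%, 58.1% and 51.8% in controls and 26.1%, 30.8% and 33.1% in sedanolide libraries. FOSL2 was thus the most abundant FOS family transcript in every control, and FOSL1 in every sedanolide library. The mean share of FOS was 13.1% ± 2.32 and 25.9% ± 0.230, that of FOSL1 31.2% ± 3.40 and 44.1% ± 3.64, and that of FOSL2 55.7% ± 3.40 and 30.0% ± 3.57 (SD, n = 3). Each of the 3 shares gave p = 0.1 in a two-sided exact permutation test, the smallest value that 3 against 3 libraries can reach, so that none can pass 0.05. The sum was 14.7 ± 2.21 TPM in controls and 18.0 ± 3.27 TPM in sedanolide libraries (exact permutation p = 0.3, n = 3 each). FOSB, not in the second table, is left out of the sum.

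In the JUN family, JUND made up 75.6% ± 10.6 of the summed TPM in controls and 77.2% ± 4.21 in sedanolide libraries (SD, n = 3). Its share ran from 64.8% in control 3 to 86.0% in control 1, a wider range than the difference between the groups. JUND was at 24.6 TPM in control 3 and 91.8 TPM in control 1, against 23.1 and 47.4 CPM. The libraries thus differed more in the deposited TPM of JUND than in its counts, and the cause was not tested. JUN made up 11.4% and 11.7% on average, and JUNB 12.9% and 11.1%. The exact permutation p was 0.8 for JUN, 0.7 for JUNB and 0.8 for JUND (two-sided, n = 3 each). The JUN family sum was 69.2 ± 34.8 TPM in controls and 68.3 ± 27.4 TPM in sedanolide libraries.

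**Figure D4:**
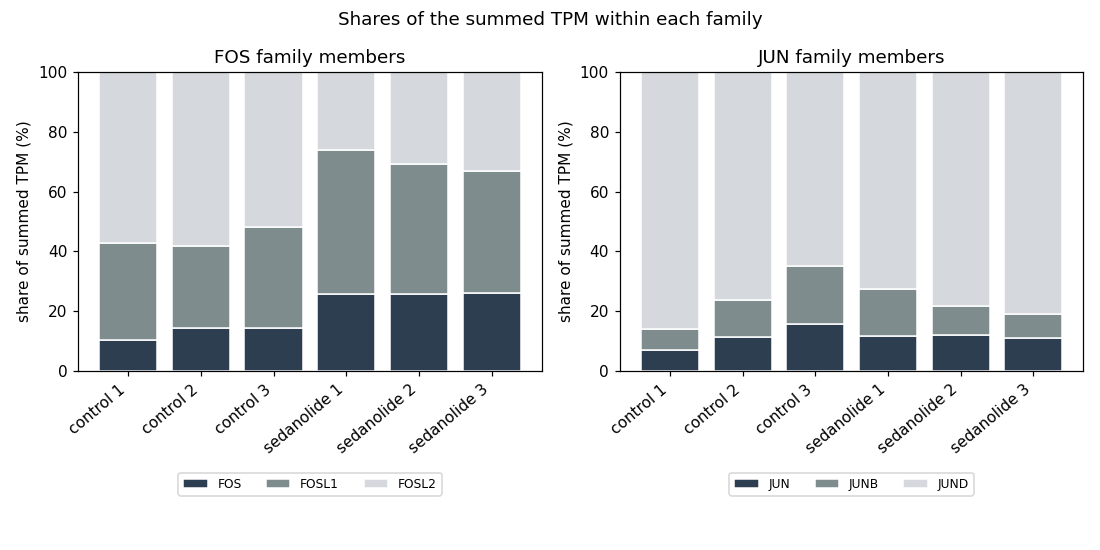
Shares of the summed TPM of FOS, FOSL1 and FOSL2 (left) and of JUN, JUNB and JUND (right) in each library, in percent. FOSL2 takes the largest part of the FOS family in the 3 controls (51.8% to 58.1%) and FOSL1 in the 3 sedanolide libraries (40.8% to 48.0%), while JUND leads the JUN family in all 6.

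Other genes of the same pathways were described by lists. None of the listed genes was past both thresholds in edgeR, although 25 of them reached an unadjusted p-value under 0.05, and DESeq2 called 3 (CCN2, EGF and ODC1). The shares at that p-value over all genes, given above as 5.34% higher and 6.57% lower, are the background of this count and of those by list. The number tested is given with each list. The 25 became 10 without sedanolide 1, 11 without sedanolide 2, 13 without control 1 and 14 without control 2. They became 31 without control 3, 40 without sedanolide 3 and 9 with the replicate block. Over all genes the count at this p-value moved as well. It was 1679 in the main test, 887 without sedanolide 2, 3249 without sedanolide 3 and 770 with the replicate block. Among other immediate early genes, 26 of 33 were tested, 2 were higher and 4 were lower at an unadjusted p-value under 0.05, and the median log2 fold change was -0.07. FOSB, the close relative of FOS, was at 1.17 ± 0.163 CPM in controls and 0.859 ± 0.141 CPM in sedanolide libraries (SD, n = 3), and its difference of -0.43 on the log2 scale had an unadjusted p of 0.140 (edgeR). CCN2, a matricellular protein gene that answers to SRF and YAP, was at 447.8, 552.3 and 435.6 CPM in controls 1 to 3 and at 254.1, 268.1 and 337.7 CPM in sedanolide 1 to 3. All of its sedanolide libraries were below all controls, and the log2 fold change was -0.74 (adjusted p = 0.131 by edgeR). CCN1, its relative, differed by -0.40 (adjusted p = 0.365), and KLF4, a zinc finger factor below 1 CPM in all libraries, had 1.03 (adjusted p = 0.449). GADD45B, a stress gene named after its values were seen because some alternatives called it, was at 7.73 ± 2.34 CPM in controls and 3.12 ± 1.66 CPM in sedanolide libraries (SD, n = 3). Its log2 fold change was -1.30 (adjusted p = 0.265 by edgeR). The groups overlapped, with 5.03 CPM in control 3 and 5.04 CPM in sedanolide 3. Of the 26 tested, 11 had a log2 fold change above 0 and 15 below.

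Of 9 other bZIP partners of AP-1, 7 were tested, with 1 higher and 2 lower at an unadjusted p-value under 0.05 and a median of -0.12. CREB5 had a log2 fold change of 0.36, while MAF had -0.76 (adjusted p = 0.359 and 0.186 by edgeR), and the abundant ATF2 had -0.15. Of 8 other MAPK phosphatases, 6 were tested, with 0 higher and 1 lower and a median of -0.09. That gene was DUSP10, which acts on p38 and JNK, with 2.97, 2.29 and 1.58 CPM in controls 1 to 3 and 0.430, 0.850 and 1.35 CPM in sedanolide 1 to 3. It was low in all libraries, and its log2 fold change of -1.34 had an adjusted p of 0.275 (edgeR). DUSP9, an ERK phosphatase and the most abundant of this list, was at 301.8 ± 59.0 and 284.2 ± 55.6 CPM (SD, n = 3), and DUSP7 and DUSP16 had log2 fold changes of 0.12 and -0.10.

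Of 15 other feedback inhibitors of RAS and ERK, 13 were tested, with 2 higher and 0 lower at an unadjusted p-value under 0.05 and a median of 0.0080. Both were Sprouty genes, whose products restrain receptor tyrosine kinase signaling. SPRY2 was at 15.1 ± 0.387 and 19.3 ± 1.59 CPM, and SPRY4 was at 147.6 ± 9.08 and 182.4 ± 20.5 CPM (SD, n = 3), with log2 fold changes of 0.36 and 0.31 and adjusted p-values of 0.307 and 0.406 (edgeR). ERRFI1, an inhibitor of EGFR, had a log2 fold change of 0.25, and PEBP1, which restrains the kinase cascade, had -0.09. Of 8 other ERK output genes, 5 were tested, with 1 higher and 0 lower and a median of -0.12. PHLDA1, a gene that follows ERK activity in many lines, was at 71.2, 74.6 and 77.3 CPM in controls 1 to 3 and at 102.3, 98.7 and 100.3 CPM in sedanolide 1 to 3. The groups were narrow and separate, and the log2 fold change of 0.43 had a standard error of 0.102 and an adjusted p of 0.159 (edgeR). CCND1, ETV4 and ETV5, which are ERK output genes as well, had log2 fold changes of -0.20, -0.03 and -0.44, and 4 of the 5 genes tested were below 0.

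Upstream of these genes, 11 of 19 growth factor ligands and receptors were tested, with 1 higher and 1 lower at an unadjusted p-value under 0.05 and a median of -0.07. The ligand EGF was at 11.6, 14.7 and 10.3 CPM in controls 1 to 3 and at 19.3, 22.1 and 29.3 CPM in sedanolide 1 to 3. Its groups did not overlap, and the log2 fold change of 0.95 had an adjusted p of 0.132 (edgeR). The receptor ERBB3 was at 720.3 ± 17.2 and 536.2 ± 46.9 CPM (SD, n = 3), a difference of -0.43 on the log2 scale with an adjusted p of 0.205, and ERBB2 and FGFR4 had -0.46 and -0.11. In the MAPK cascade, 29 of 30 genes were tested, with 2 higher and 1 lower and a median of 0.02. The adaptor SHC1 had a log2 fold change of 0.38, the p38 kinase MAPK12 had 0.46, the p38 activator MAP2K6 had -0.34 and the ERK1 gene MAPK3 had -0.21. All 8 of the SRF, TCF and CREB factors were tested, and 0 were higher and 0 were lower, with a median of 0.08. SRF itself had a log2 fold change of 0.19, and MRTFA, MRTFB and CREB1 had -0.08, -0.22 and -0.04.

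The partners of MYC and its target genes were listed apart. Of 12 MYC network partners, 11 were tested, with 0 higher and 0 lower at an unadjusted p-value under 0.05 and a median of -0.03, and MXD4, MLX, MLXIP and MGA had log2 fold changes of -0.25, 0.15, 0.10 and -0.03. All 20 MYC target genes, most of which serve polyamine, nucleotide or ribosome production, were tested, and 7 were higher and 0 lower (2 higher without control 2 or without sedanolide 1, and 14 without sedanolide 3). Their median log2 fold change was 0.36, against 0.0057 over all genes. Of these genes 20 of 20 were above 0, against 7154 of 14102 over all genes tested. The list was chosen with earlier results of these data known, so that these values are a description. ODC1, the rate-limiting enzyme of polyamine synthesis, was at 366.2, 316.4 and 415.7 CPM in controls 1 to 3 and at 681.3, 689.9 and 573.1 CPM in sedanolide 1 to 3. Its groups were far apart, and its log2 fold change of 0.82 (standard error 0.146) had an adjusted p of 0.0721 (edgeR). The nucleoside diphosphate kinase NME1 had a log2 fold change of 0.47, NOP16 had 0.55 and the RNA polymerase I subunit POLR1B had 0.33, with adjusted p-values of 0.206, 0.308 and 0.374. Unlike MYC itself, the list had a lower median on the side of controls 1 and 2 and sedanolide 3, by -0.33 on the log2 scale. Not every gene followed this. WDR43 was at 151.0, 160.9 and 113.0 CPM in controls 1 to 3 and at 118.1, 149.7 and 198.0 CPM in sedanolide 1 to 3. Within the sides the median was 0.27 and 0.28, with 19 of 20 genes above 0 in both. Of 13 AP-1 target genes, 3 were tested, with 0 higher and 0 lower and a median of 0.04, and PLAUR and TIMP1 had log2 fold changes of -0.20 and 0.17.

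**Figure D5:**
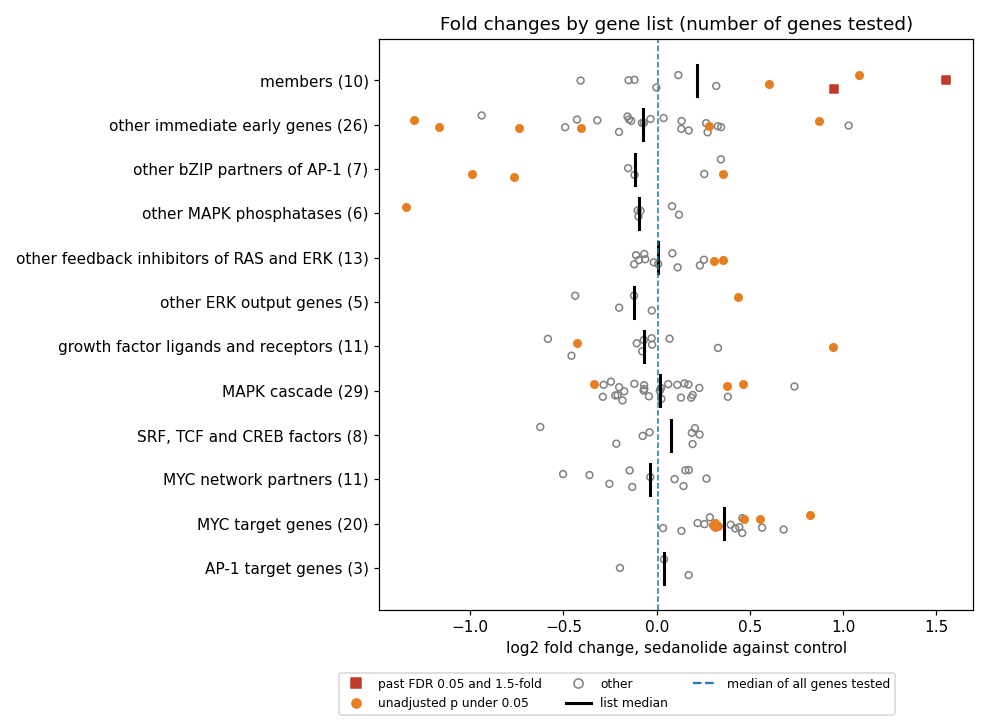
Log2 fold changes of all tested genes of each list in sedanolide-treated against control cells, with the vertical position inside a row spread for legibility. Black bars are list medians and the dashed line is the median of all genes tested (0.0057). The only genes past both thresholds are FOS and FOSL1. The MYC target genes lie above 0 in 20 of 20 cases, against 7154 of 14102 over all genes tested. The lists were chosen with earlier results of these data known.

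Genes with the pattern most like FOS and most like FOSL2, the members with the highest and the lowest log2 fold change, were found by the Pearson correlation of log2 CPM over the 6 libraries, among genes with a mean of at least 5 CPM. The points share library and depth, and the correlation follows the group difference, so that it is a description. For FOS they were KIAA1549 (0.996), PHLDA1 (0.995), TAF4B (0.995), HKDC1 (0.993) and CLDN4 (0.993), and 99 of 10379 genes were over 0.95. KIAA1549 was at 17.6 and 24.98 CPM on average in controls and sedanolide libraries, HKDC1 at 16.4 and 36.5 CPM, and CLDN4, a tight junction protein gene, at 9.83 and 26.02 CPM. For FOSL2 they were ADCY6 (0.999), TNFAIP3 (0.997), FZD5 (0.996), FXYD1 (0.995) and SERPINH1 (0.995), and 361 of 10378 genes were over 0.95. More genes were thus close to FOSL2, which varied with the sides, than to FOS, which did not.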

How the data were processed

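Per the paper's methods, the authors used FastQC and Trimmomatic on 150 bp paired-end reads, STAR to align them to GRCh38 and RSEM to quantify genes. Versions, annotation and the strand setting are not given in the sources used here. The authors deposited expected counts from RSEM, not normalized, and a second table of log2(TPM + 1) for a part of the genes, whose filter is not stated. The TPM printed were recovered from these deposited log2 values.

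Expected counts were rounded and tested in R 4.3.3 with edgeR 4.0.16 (filterByExpr, TMM, robust quasi-likelihood fit, no term besides the condition). Calls required FDR 0.05 and a 1.5-fold change, as in the study's methods. The 2 luciferase reporters were left out of the gene counts given. Standard errors were obtained from the log2 fold change and the F statistic. Positions were taken from GENCODE 44 and promoters from RefSeq.

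The alternatives were DESeq2 1.42.0, limma-voom (limma 3.58.1), size factors of DESeq2 in edgeR, scaling to library size alone, a minimum of 0.5 CPM in 1 library, no filter, an FDR of 0.01, no fold change cutoff, the replicate number as a term, a term for the side of component 1, leaving out each library, and limma on the second table at pseudocounts of 1 and 0.1. All 10 members are named. Of each list, the text names genes past both thresholds and otherwise up to 4 genes, those with the largest log2 fold changes among genes whose groups do not overlap, filled up by mean CPM. Some genes that this rule names are not reported here but are included in the counts given. The members, lists and alternatives were chosen with earlier results of these data known. The procedure was tested on simulated data. The simulated libraries had no split into sides, so that they cannot show how the procedure behaves with the split seen here. The main results use all 6 libraries. Libraries within a group differed by more than sampling noise, with a chi-square per degree of freedom from 21.0 to 149.6, and none was a duplicate. Marker lists of HepG2 cells and of other cell types were counted as well.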

Additional observations from a re-analysis of the deposited data

How the results depend on the processing

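Of the 10 genes, 2 were called in the main test, 4 with DESeq2 or with the side of the library as a term, 0 at an FDR of 0.01, 0 with the replicate block, 0 in the second table at both pseudocounts, 1 and 0.1 (3 at an unadjusted p under 0.05 in both), and 0 to 1 when 1 library was left out (4 to 5 at an unadjusted p under 0.05). In the fits with 5, the added gene was FOSL2, lower without control 3 (unadjusted p = 0.0339 by edgeR) and without sedanolide 3. FOS was called in 10 of 18 alternatives and FOSL1 in 8 of 18, and no log2 fold change of the 10 genes was past a threshold in the opposite direction. Over all genes, 94 were called in the main test, 324 with DESeq2, 157 without the filter on low counts, 10 at an FDR of 0.01, 379 with the side as a term, 61 in the second table with a pseudocount of 0.1, and 0 to 135 when 1 library was left out. It was 0 without control 1 or without sedanolide 2, where 1065 and 887 genes were at an unadjusted p under 0.05, and 7, 28, 12 and 135 without control 2, control 3, sedanolide 1 and sedanolide 3. With library size only, 50 were higher and 59 lower, against 50 and 44. Of the listed genes, 0 were called in the main test, 3 with DESeq2, 2 without the filter (EGF and ODC1), 4 with the side as a term (CCN2, EGF, GADD45B and ODC1), 1 in the second table with either pseudocount (ODC1), and 0 to 2 when 1 library was left out (GADD45B and ODC1 without sedanolide 3). The median of the 10 genes was between 0.07 and 0.29, and that of the MYC target genes between 0.27 and 0.53. The second table moved the median of 10912 shared genes by -0.10 (from 0.03 to -0.07), and FOS there had a log2 fold change of 0.96 with a pseudocount of 1 and 1.25 with 0.1. Libraries with the same replicate number did not deviate together (correlations of -0.13, -0.30 and -0.73). The libraries of each such pair lie on opposite sides of component 1, so that these correlations cannot tell whether the numbers pair them. With the replicate block 0 genes were called (770 at an unadjusted p under 0.05), and the adjusted p of FOS and FOSL1 was 0.424 and 0.5. Causes of these differences were not tested. With the side as a term, calls can be too many, because the side was read from the same counts. FOS, with 33 to 52 counts per control library, had the fewest counts of the 10 genes.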

Other observations

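Many inducible genes of the same families did not pass the filter on low counts. EGR2, EGR3 and EGR4 had 7, 8 and 20 counts over all 6 libraries together, NR4A2 had 6, and PTGS2, ARC and DUSP2 had 0. Among ligands, HGF had 0 counts, FGF19 had 6, TGFA had 23 and AREG had 26. Among AP-1 targets, IL6 and MMP7 had 0 counts, MMP9 had 4, CXCL8 had 10 and CD44 had 35. Where no count was seen in a library, up to 3 counts remain possible. Without the filter, 11 AP-1 targets were tested, with 1 higher and 1 lower at an unadjusted p under 0.05 (edgeR), and 18 ligands and receptors, with 1 higher and 3 lower.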
